A study of Bos taurus with 6 samples.

Results

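The genes described here are 10 regulators and surface proteins that mark epithelial and luminal identity in the mammary gland: GATA3, FOXA1, ELF3, EHF, GRHL1, GRHL2, OVOL1, CDH1, EPCAM and KIT. They were taken by gene name from a deposited table of 24616 genes, and all 10 were found. The table covers cultured bovine (Bos taurus) mammary epithelial cells in 2 groups, each with 3 RNA-seq libraries. One group is labelled control. The other, called treated below, received acetate, which the sample titles give as NaAc, its sodium salt, together with BHBA (beta-hydroxybutyrate, a ketone body). No sodium-matched control is named, and the sources used here do not give breed, age, dose, treatment time or whether the cells were a line or a primary culture. The labels do not say whether the libraries of a group came from separate cultures or animals, so that p-values rest on a spread between libraries that may be purely technical.

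The mammary epithelium has an inner luminal layer, which makes milk, and an outer basal layer, which contracts to expel it. GATA3 and FOXA1 are transcription factors known for setting and keeping luminal fate in the mouse and human gland. ELF3 and EHF belong to the epithelium-specific branch of the ETS transcription factors, the grainyhead-like factors GRHL1 and GRHL2 and the zinc finger repressor OVOL1 are known for keeping epithelial cells from turning mesenchymal, and CDH1 (E-cadherin) and EPCAM are the adhesion proteins that such factors help to maintain. KIT, the receptor for stem cell factor, marks luminal progenitors in the mouse and human gland.

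The data showed cells with abundant epithelial adhesion transcripts, much scarcer luminal transcription factors and KIT listed at or near 0, in both groups. In all 6 libraries EPCAM stood highest, CDH1 second and KIT last. EHF and ELF3 came next, and the other members were all under 20 FPKM. FPKM divides a gene's mapped fragments by gene length and by the library's total, so levels can be compared between genes within a library. GRHL2 had the largest difference between the groups and was higher in treated cells, while ELF3 and CDH1 were lower, but none of the 9 members tested passed the threshold over all genes (limma, Benjamini-Hochberg adjusted p under 0.05), against 0.474% of all 11615 genes tested.

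**Figure D1:**
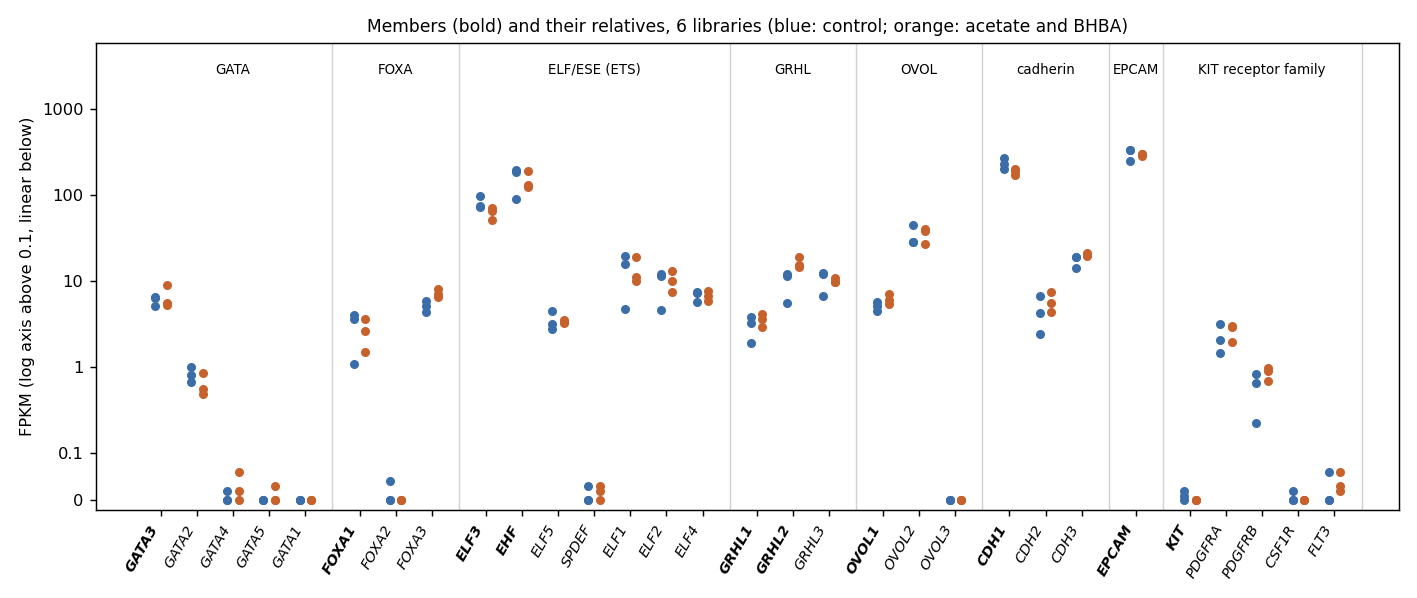
FPKM of the members (bold) and of relatives from the same gene families, 1 point per library, on an axis that is logarithmic above 0.1 and linear below it; blue points are control libraries and orange points treated ones. EHF, CDH1 and GATA3 lie above the relatives drawn beside them, FOXA1 lies below FOXA3 and OVOL1 below OVOL2, and KIT lies at or near 0.

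Facts of the libraries bear on every value that follows. Summed FPKM ran from 787186 in treated replicate 1 to 1134026 in control replicate 1, with the other 4 libraries between 816087 and 936152. Because FPKM values keep no counts, read depth is unknown for every library. Control replicate 1 stood apart: it was the highest or the lowest of the 3 controls for 92.5% of all genes tested, and for all 9 members tested. In treated cells replicate 1 took that place for 86.4% of all genes and for 8 of the 9 members. Any library of 3 is the highest or the lowest for most genes even when none stands apart. The shares of the other libraries are not given here. For all 9 members, the side on which control replicate 1 lay from the other controls was opposite to the side on which treated replicate 1 lay from the other treated libraries, as it was for 83.0% of all genes tested. Each tested member's result is therefore given also without control replicate 1, and the members were fitted again with the log2 of the summed FPKM as a covariate, which is itself computed from the same values.

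Markers of both epithelial layers were present. The luminal keratins KRT8, KRT18 and KRT19 had control means of 1546, 1298 and 1690 FPKM, and KRT5, a basal keratin, one of 9104 FPKM. Other basal markers differed widely in level. KRT17 and ACTA2 had control means of 1084 and 335 FPKM, and KRT14, another basal keratin, one of 15.9 FPKM. MYH11, OXTR and NGFR had control means of 0.0467, 0.127 and 0.660 FPKM. TP63, a transcription factor that defines basal cells, lay between 0.05 and 0.88 FPKM. ESR1, the oestrogen receptor of hormone-sensing luminal cells, was listed at 0 in all 6 libraries. RPL27, a ribosomal protein gene that every cell uses, was listed at 0 in all 6 as well, so a 0 in this table need not mean an absent transcript. The luminal keratins were thus abundant while ESR1 and KIT were listed at or near 0, and in bulk RNA fewer cells of a type cannot be told apart from less RNA per cell.

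GATA3 (ENSBTAG00000017243) was expressed at a modest level, in the 29.4th percentile of the genes tested by mean FPKM. Control cells had 5.14, 6.28 and 6.45 FPKM and treated cells 9.08, 5.61 and 5.26 FPKM in replicates 1, 2 and 3. Treated replicate 1 was the highest of all 6, and the other treated libraries lay within the control range. Mean FPKM was 5.96 ± 0.712 for control libraries and 6.65 ± 2.11 for treated ones (SD, n = 3 per group), a log2 fold change of 0.11 ± 0.24 SE (limma adjusted p = 0.936). The 95% interval ran from -0.46 to 0.69, and without control replicate 1 the log2 fold change was 0.020 (adjusted p = 0.978). Log2 fold changes are differences between group means of log2(FPKM + 0.5), a scale on which the change of a low gene is usually understated.

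FOXA1 (ENSBTAG00000013888), a pioneer factor that opens chromatin for hormone receptors, was the lowest of the 9 members tested in 5 of the 6 libraries. It had 1.07, 3.99 and 3.66 FPKM in control replicates 1, 2 and 3 and 3.58, 1.50 and 2.62 FPKM in treated ones. The groups overlapped, and the highest control value was 3.73 times the lowest, the widest spread among the members tested. Its log2 fold change was -0.068 ± 0.48 SE (adjusted p = 0.980), with an interval from -1.23 to 1.09, which spans 0.427 to 2.13 times the control level. Without control replicate 1 the log2 fold change was -0.55 (adjusted p = 0.429).

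Within these 2 families the members did not always lead. Of the GATA factors found, GATA3 stood highest, with GATA2 at 0.820 FPKM in control cells and GATA1, GATA4 and GATA5 at 0.06 FPKM or below in every library. FOXA3, better known from the liver, was above FOXA1, at 5.12 ± 0.781 FPKM (control) against 7.18 ± 0.818 FPKM (treated; log2 fold change 0.45 ± 0.18, adjusted p = 0.411). FOXA3 was higher in all 3 treated libraries than in any control library, and it rose in the fit with the summed FPKM as a covariate (0.51, adjusted p = 0.0169) but not when control replicate 1 was also left out (0.47, adjusted p = 0.0577). Of the 12 relatives of the members tested, 2 lay above all controls in treated libraries, against 13.0% of all genes. With the covariate 1 of the 12 rose, against 11.7% of all genes. FOXA2 reached at most 0.04 FPKM.

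ELF3 (ENSBTAG00000008756) and EHF (ENSBTAG00000017150) were the most abundant of the 7 transcription factors among the members. ELF3, an ETS factor induced in epithelia as they differentiate or become inflamed, had 98.9, 72.55 and 74.0 FPKM in control replicates 1, 2 and 3. Treated libraries had 51.5, 70.2 and 65.0 FPKM, all below the lowest control, with 70.2 against 72.55 FPKM at the nearest. The log2 fold change was -0.39 ± 0.18 SE (adjusted p = 0.530, interval -0.83 to 0.047), and -0.25 without control replicate 1 (adjusted p = 0.454).

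EHF, an ETS factor that represses mesenchymal genes in several epithelia, showed no such separation. Its values were 90.5, 186 and 197 FPKM in control cells and 191, 126 and 131 FPKM in treated cells. Control replicate 1 was the lowest of all 6, and treated replicate 1 lay between control replicates 2 and 3. The log2 fold change was -0.021 ± 0.33 SE (adjusted p = 0.991) with an interval from -0.83 to 0.78, and its sign turned in 5 of 18 alternative settings. It was -0.38 without control replicate 1 (adjusted p = 0.374). Some of the 18 settings change only the filter, the variance model or the replicate block, which cannot move the estimate.

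Among their relatives, EHF stood far above ELF5, the ETS factor of alveolar luminal cells, which averaged 3.47 ± 0.883 FPKM (control) and 3.35 ± 0.146 FPKM (treated; log2 fold change -0.021 ± 0.21, adjusted p = 0.986). SPDEF, another epithelial ETS factor, reached at most 0.03 FPKM. The broadly expressed ELF1, ELF2 and ELF4 had control means of 13.5, 9.37 and 6.84 FPKM.

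GRHL2 (ENSBTAG00000004518), which directly activates CDH1 in mouse and human epithelia, was higher in every treated library than in any control library. Control cells had 5.51, 11.6 and 12.01 FPKM and treated cells 19.0, 15.3 and 14.6 FPKM in replicates 1, 2 and 3. Control replicate 1 lay far below the other controls, and the gap between the groups ran from 12.01 to 14.6 FPKM. The means were 9.71 ± 3.64 and 16.3 ± 2.38 FPKM (SD, n = 3 per group), a log2 fold change of 0.79 ± 0.31 SE with an interval from 0.044 to 1.53. Its unadjusted p was 0.0409 and its adjusted p 0.415, so it did not pass over all genes. GRHL2 was the 1 member of 9 with an unadjusted p under 0.05, against 11.0% of all genes tested. Leaving out control replicate 1 gave a log2 fold change of 0.44 (adjusted p = 0.198).

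GRHL1 (ENSBTAG00000007485), known for activating desmosome genes in mouse epidermis, was lower, with 1.91, 3.25 and 3.84 FPKM in control cells and 4.15, 3.64 and 2.89 FPKM in treated cells. The groups overlapped (log2 fold change 0.24 ± 0.28 SE, adjusted p = 0.887), and without control replicate 1 the log2 fold change was -0.0029. GRHL3, the third grainyhead-like factor, averaged 10.4 ± 3.24 FPKM (control) and 10.05 ± 0.610 FPKM (treated; log2 fold change -0.0050 ± 0.25, adjusted p = 0.996). Each control library had slightly less GRHL2 than GRHL3, a difference smaller than the spread between controls, whereas every treated library had more GRHL2 than GRHL3.

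OVOL1 (ENSBTAG00000012656), a repressor that moves epithelial cells from growth into differentiation in mouse skin, had 5.74, 5.12 and 4.49 FPKM in control cells. Treated cells had 5.45, 5.97 and 7.0 FPKM, of which 2 lay above all controls. The log2 fold change was 0.24 ± 0.17 SE (adjusted p = 0.761, interval -0.18 to 0.66), and 0.32 without control replicate 1 (adjusted p = 0.382). It was higher in all 18 alternative settings, some of which cannot move the estimate, without passing in any. Its relative OVOL2, known for repressing ZEB1, was more abundant, at 34.1 ± 9.47 and 35.0 ± 7.30 FPKM, with a log2 fold change of 0.049 ± 0.24 (adjusted p = 0.972). OVOL3 was listed at 0 in all 6 libraries.

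**Figure D2:**
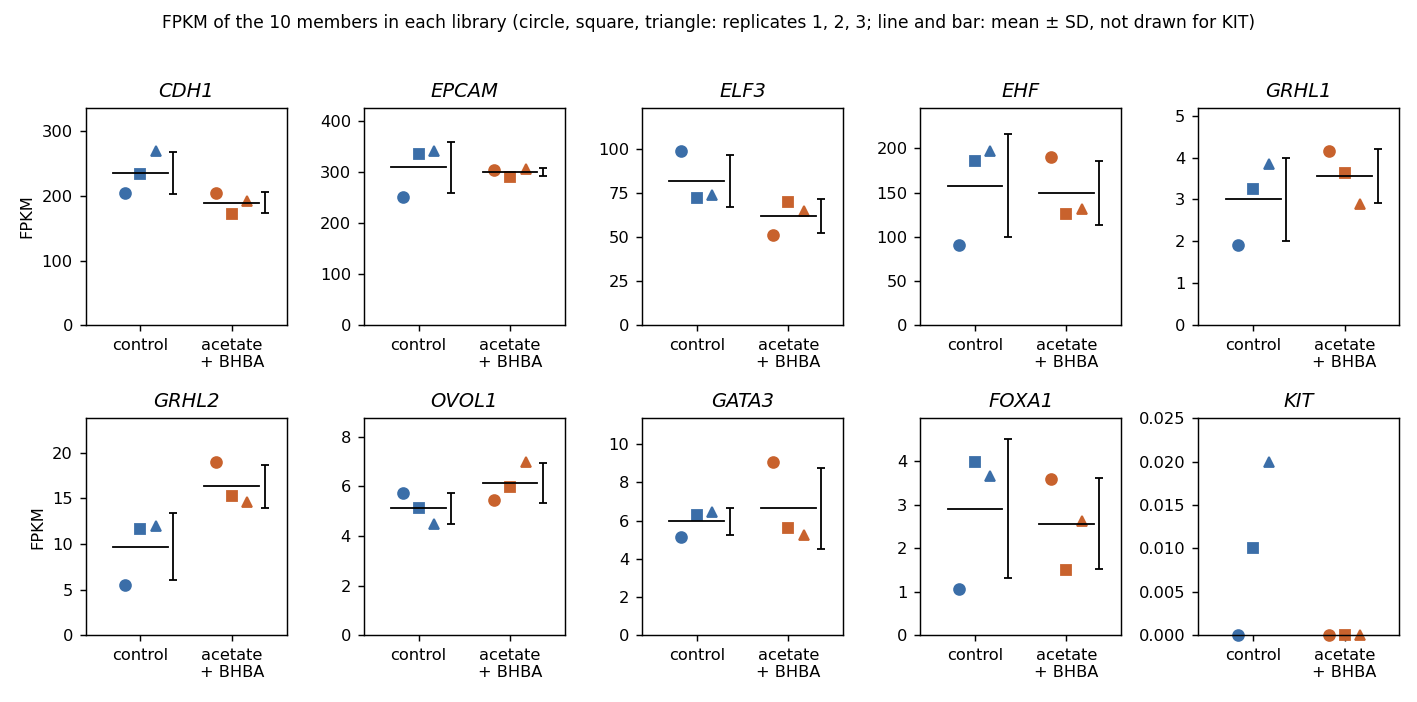
FPKM of each member in the 6 libraries, with replicates 1, 2 and 3 as circle, square and triangle, a line at the group mean and a bar for the SD (n = 3 per group); each panel has its own axis from 0 and no mean is drawn for KIT. GRHL2 is higher in all treated libraries, ELF3 and CDH1 are lower in all of them, and replicate 1 often lies away from the other libraries of its group.

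CDH1 (ENSBTAG00000015991), the cadherin that joins epithelial cells at adherens junctions, lay in the 95.2th percentile of the genes tested. Control cells had 204.59, 234 and 269 FPKM and treated cells 204.57, 172 and 193 FPKM. Every treated library was below every control library, but control replicate 1 and treated replicate 1 differed by only the last decimal. The means were 236 ± 32.4 and 190 ± 16.5 FPKM (SD, n = 3 per group), a log2 fold change of -0.31 ± 0.15 SE (adjusted p = 0.536, interval -0.66 to 0.044). Without control replicate 1 it was -0.41 (adjusted p = 0.166).

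EPCAM (ENSBTAG00000006474), a surface protein of simple epithelia and progenitors, was the most abundant member. It had 251, 335 and 340 FPKM in control replicates 1, 2 and 3 and 304, 290 and 305 FPKM in treated ones. The treated libraries differed little among themselves, with an SD of 8.50 FPKM against 50.1 in control cells, and lay inside the control range. The log2 fold change was -0.030 ± 0.15 SE (adjusted p = 0.972), and the 95% interval runs from 0.758 to 1.27 times the control level. Without control replicate 1 it was -0.17 (adjusted p = 0.415).

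In the cadherin family CDH1 was followed by CDH3 (P-cadherin, a basal cadherin), at 17.4 ± 2.67 and 20.2 ± 0.820 FPKM, and CDH2 (N-cadherin, a mesenchymal one), at 4.44 and 5.80 FPKM. CDH3 was higher in every treated library (log2 fold change 0.23 ± 0.15, adjusted p = 0.726), and CDH2 overlapped between the groups (0.41 ± 0.36, adjusted p = 0.830). Without control replicate 1 the log2 fold change was 0.095 for CDH3 and 0.082 for CDH2.

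KIT (ENSBTAG00000002699) was listed at 0 in control replicate 1 and all 3 treated libraries, and at 0.01 and 0.02 FPKM in control replicates 2 and 3. It fell below the minimum mean of 1 FPKM set for testing and was left out of the fit. KITLG, its ligand, was present in every library, with 2.07, 6.23 and 6.94 FPKM in control cells and 10.7, 5.09 and 5.09 FPKM in treated ones (log2 fold change 0.48 ± 0.49, adjusted p = 0.861, and -0.0046 without control replicate 1). Of the receptors related to KIT, PDGFRA had a control mean of 2.23 FPKM, and CSF1R and FLT3 reached at most 0.02 and 0.06 FPKM. All 14 KIT signalling genes found were tested and all 14 were on the higher side in treated cells (median log2 fold change 0.20, against 0.079 over all genes tested), as were 61.9% of all genes tested. Without control replicate 1 only 6 of the 14 were higher, with a median of -0.044, against 49.6% of all genes. None of them passed in the fit of all 6 libraries without a covariate, nor had any an unadjusted p under 0.05 there. Those with the smallest p were DUSP6, a phosphatase induced by ERK signalling (0.85 ± 0.38, adjusted p = 0.493), the transcription factor MITF (0.45 ± 0.25, adjusted p = 0.623) and the adaptor GRB2 (0.26 ± 0.19, adjusted p = 0.759). With the summed FPKM as a covariate, 1 of the 14 rose and none fell, against 11.7% and 6.27% of all genes. That gene was DUSP6 (0.66, adjusted p = 0.00923). It passed also when control replicate 1 was left out of that fit (0.61, adjusted p = 0.0342). The adaptors and kinases among the 14 serve many receptors besides KIT.

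Read as a group, 4 of the 9 members tested were higher and 5 lower in treated cells, with a median log2 fold change of -0.021 against 0.079 over all genes tested. The groups did not overlap for 3 members, against 19.7% of all genes tested. GRHL2 was above in treated cells, as were 13.0% of all genes, and ELF3 and CDH1 were below, as were 6.69%. The intervals of FOXA1 and EHF reached from 0.427 to 2.13 and from 0.565 to 1.72 times the control level, so the missing calls do not show that these genes were alike in both groups.

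With the log2 of the summed FPKM as a covariate, standard errors were smaller (for GRHL2, 0.089 in place of 0.31) and 4 of the 9 members passed, against 18.0% of all genes (11.7% higher and 6.27% lower in treated cells). GRHL2 rose (log2 fold change 0.63 ± 0.089 SE, adjusted p = 0.00568). CDH1 fell (-0.36 ± 0.067, adjusted p = 0.0137), and so did ELF3 (-0.31 ± 0.070, adjusted p = 0.0263) and EHF (-0.20 ± 0.050, adjusted p = 0.0359). When control replicate 1 was also left out, an alternative added after the data were seen, GRHL2 (0.54, adjusted p = 0.0155), ELF3 (-0.37, adjusted p = 0.0241) and CDH1 (-0.34, adjusted p = 0.0437) passed, against 13.7% of all genes, and EHF did not (-0.20, adjusted p = 0.0624). That fit has 5 libraries and 3 coefficients. GATA3, FOXA1, GRHL1, OVOL1 and EPCAM passed in neither fit.

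**Figure D3:**
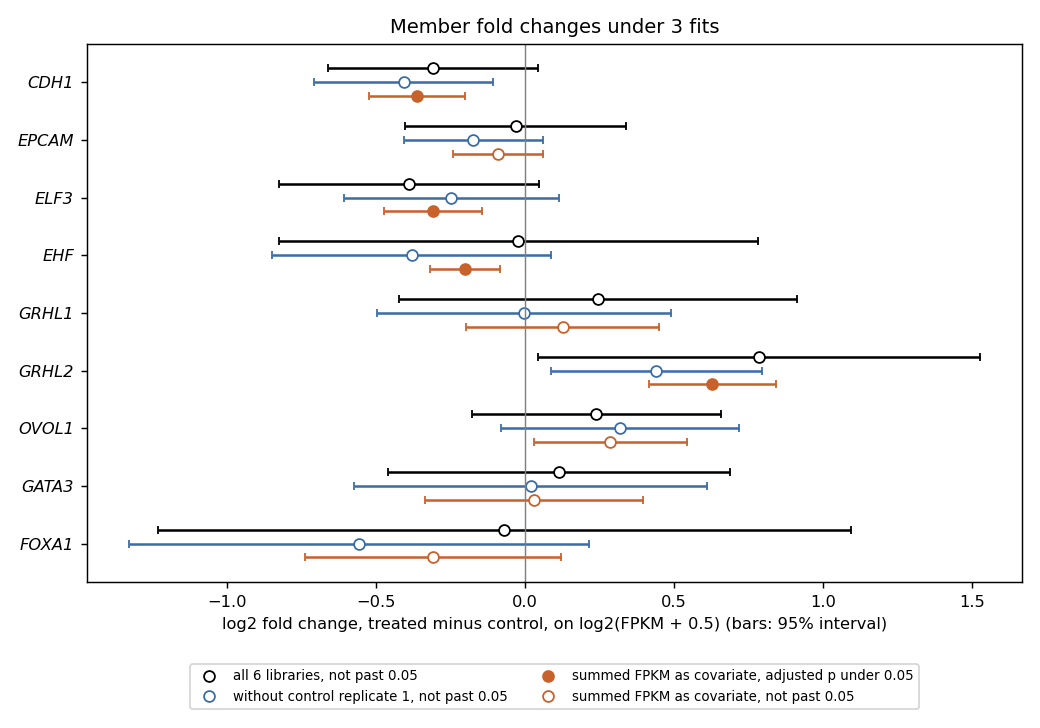
Log2 fold change (treated minus control) of the 9 members tested, with 95% intervals, from all 6 libraries (black), without control replicate 1 (blue) and with the log2 of the summed FPKM as a covariate (orange); filled points have an adjusted p under 0.05. Filled points occur for GRHL2, ELF3, CDH1 and EHF with the covariate, and of the 9 only GRHL1 changes its side of 0 between these 3 fits.

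The members followed the summed FPKM to different degrees. EHF had a slope of -2.40 ± 0.14 SE log2 units per unit of log2 summed FPKM, FOXA1 of -3.23 ± 0.52, GRHL2 of -2.11 ± 0.26 and GRHL1 of -1.58 ± 0.39. ELF3 ran the other way, with a slope of 1.10 ± 0.20. The slope passed an adjusted p of 0.05 in limma for 7 of 9 members, as it did for 63.8% of all genes tested, so that such a dependence was common in these libraries. The catenins CTNNB1 and CTNNA1, adhesion partners of CDH1 inside the cell, were also lowest in control replicate 1, at 82.4 and 134 FPKM against at least 125 and 203 FPKM in the other libraries. JUP, another adhesion partner of CDH1, was instead highest there, at 328 FPKM against at most 306 FPKM in the other libraries. Control replicate 1 was the lowest of the 3 controls for 6456 of the 11615 genes tested. What the summed FPKM reflects was not tested.

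**Figure D4:**
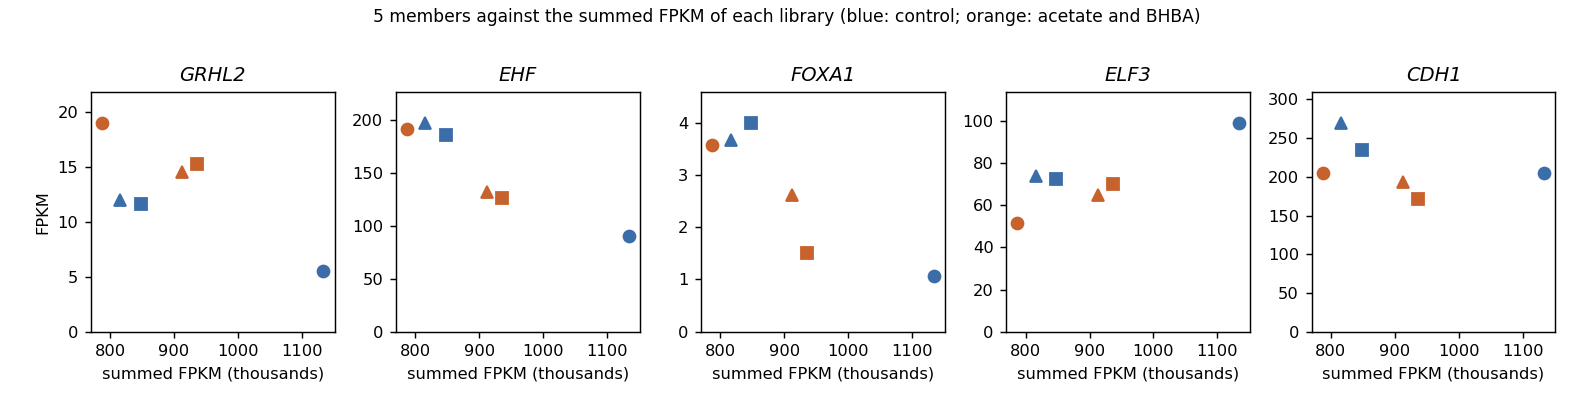
FPKM of GRHL2, EHF, FOXA1, ELF3 and CDH1 (vertical axes from 0) against the summed FPKM of the library, with control libraries in blue and treated ones in orange and replicates 1, 2 and 3 as circle, square and triangle. EHF and FOXA1 decline towards control replicate 1 at the right, ELF3 climbs, and at similar sums GRHL2 is higher and CDH1 lower in treated libraries.

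Ratios within a library do not depend on its scaling, and 3 were computed between members. GRHL2 over GRHL1 was 2.88, 3.57 and 3.13 in control cells and 4.59, 4.20 and 5.06 in treated cells. CDH1 over EPCAM was 0.815, 0.699 and 0.792 in control cells and 0.673, 0.593 and 0.632 in treated cells. For these ratios the groups did not overlap, and each had p = 0.10 in an exact 2-sided permutation test, the smallest that 3 against 3 libraries can give (0.15 after adjustment over the 3 ratios). EHF over ELF3 was 0.915, 2.56 and 2.66 in control cells and 3.70, 1.80 and 2.02 in treated cells, and the groups overlapped (exact permutation p = 0.70).

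**Figure D5:**
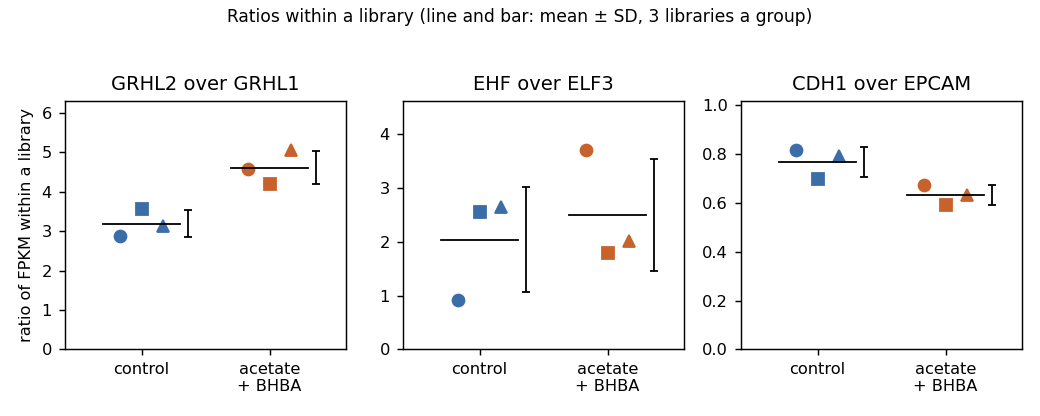
Ratio of FPKM between paired members within each library, on axes from 0, with replicates 1, 2 and 3 as circle, square and triangle, a line at the group mean and a bar for the SD (n = 3 per group). The groups separate for GRHL2 over GRHL1 (higher in treated) and CDH1 over EPCAM (lower in treated), and overlap for EHF over ELF3.

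Genes that work with the members were read from the same fit. Of 16 adhesion partners of CDH1 and EPCAM, all tested, none passed. At an unadjusted p under 0.05 were 1 higher and 2 lower, against 11.0% of all genes in either direction. CTNND1 (p120-catenin), which holds CDH1 at the membrane, was lower in every treated library, at 72.8 ± 9.45 and 56.8 ± 1.38 FPKM (log2 fold change -0.35 ± 0.13, adjusted p = 0.392), and fell in the fit with the covariate (-0.39, adjusted p = 0.00718), and also when control replicate 1 was left out of that fit (-0.43, adjusted p = 0.0134). NECTIN2, another junction protein, had -0.69 ± 0.28 (adjusted p = 0.430) and PSEN2, a subunit of the protease that cuts EPCAM and CDH1, 0.44 ± 0.15 (adjusted p = 0.350). CTNNB1 (beta-catenin) stood at 0.11 ± 0.33 (adjusted p = 0.953). Of the 16, 10 were higher with a median of 0.094, against 61.9% and 0.079 over all genes. Without control replicate 1, 3 were higher with a median of -0.19, against 49.6% of all genes. In the fit with the covariate, 1 of the 16 rose and 2 fell, against 11.7% and 6.27% of all genes. The gene that rose was PSEN2 (0.45, adjusted p = 0.0277). PSEN2 did not pass when control replicate 1 was also left out (0.44, adjusted p = 0.0730), where 2 of the 16 fell and none rose, against 13.7% of all genes in either direction.

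Epithelial effector genes, among them tight junction and protease genes downstream of grainyhead factors, were tested for all 19 found, and none passed. On the higher side were 12, with a median log2 fold change of 0.065, against 61.9% and 0.079 over all genes. MARVELD3, a tight junction protein, had 0.41 ± 0.15 (adjusted p = 0.373), SPINT1, a protease inhibitor, -0.26 ± 0.14 (adjusted p = 0.626) and the epithelial splicing factors ESRP2 and ESRP1 0.30 ± 0.18 (adjusted p = 0.670) and 0.10 ± 0.18 (adjusted p = 0.928). With the covariate, 4 of the 19 rose and none fell, against 11.7% and 6.27% of all genes tested. When control replicate 1 was also left out, 2 of the 19 passed, against 13.7% of all genes.

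Repressors of CDH1 differed in level. ZEB1 reached at most 0.13 FPKM, whereas TCF3 and SNAI1 had control means of 15.55 and 6.68 FPKM. SNAI2 had means of 9.76 ± 1.62 and 12.01 ± 1.74 FPKM (log2 fold change 0.29 ± 0.18, adjusted p = 0.704). TWIST1 was higher in every treated library, at 7.07 ± 0.357 and 9.15 ± 0.405 FPKM (0.35 ± 0.13, adjusted p = 0.392), and rose in the fit with the covariate (0.37, adjusted p = 0.0191), though not when control replicate 1 was also left out (0.36, adjusted p = 0.0524). PRRX1 had -0.43 ± 0.27 (adjusted p = 0.695). Of the 14 CDH1 repressors and mesenchymal genes found, 8 were tested, 4 on each side, and none passed without the covariate. Treated libraries lay above all controls for 1 of the 8 and below them for none, against 13.0% and 6.69% of all genes. With the covariate 2 of the 8 rose and none fell, against 11.7% and 6.27% of all genes. When control replicate 1 was also left out, 1 rose and none fell, against 13.7% of all genes in either direction. The mesenchymal products themselves were not low: VIM (vimentin) had a control mean of 483 FPKM and FN1 (fibronectin) one of 2165 FPKM.

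Of 20 luminal regulators found, 17 were tested and 1 fell: CITED1, a co-regulator found in luminal cells of the mouse gland, with 29.6, 15.8 and 16.9 FPKM in control cells and 1.2, 2.20 and 1.69 FPKM in treated ones, a log2 fold change of -3.24 ± 0.30 (adjusted p = 0.0220). CITED1 was put on that list with its fall already known, and it did not pass in any fit that left out 1 library other than control replicate 1. The other 16 did not pass, 11 of them higher, against 61.9% of all genes. The list's median log2 fold change was 0.14, against 0.079 over all genes. Of 13 luminal markers found, 10 were tested and none passed, with 4 higher and a median of -0.057. ALDH1A3, a luminal progenitor enzyme, had 1056 ± 169 and 1567 ± 164 FPKM (0.58 ± 0.18, adjusted p = 0.305), CD14 0.65 ± 0.18 (adjusted p = 0.237) and AREG, a growth factor of hormone-sensing cells, 0.39 ± 0.12 (adjusted p = 0.263). These 3 were higher in every treated library and rose in the fit with the covariate, with adjusted p between 0.00532 and 0.0189. Treated libraries lay above all controls for 13.0% of all genes, and 11.7% rose with the covariate. When control replicate 1 was also left out, ALDH1A3 (0.51, adjusted p = 0.0219) and AREG (0.44, adjusted p = 0.0144) passed, and CD14 did not (0.53, adjusted p = 0.0649).

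Of 13 basal markers found, 9 were tested and none passed, with a median log2 fold change of 0.12. KRT5 had -0.51 ± 0.20 (adjusted p = 0.418), KRT14 0.44 ± 0.19 (adjusted p = 0.466) and ACTA2, smooth muscle actin, -0.37 ± 0.18 (adjusted p = 0.539). With the covariate, 3 of the 9 rose and 3 fell, against 11.7% and 6.27% of all genes. Among them KRT5 fell (-0.50, adjusted p = 0.00198) and KRT14 rose (0.51, adjusted p = 0.0371). When control replicate 1 was also left out, 2 of the 9 rose and 2 fell, against 13.7% of all genes in either direction. In that fit KRT5 passed (-0.52, adjusted p = 0.0101) and KRT14 did not (0.41, adjusted p = 0.115). Summed over the 13, basal markers ran from 12111 to 14943 FPKM in control and from 9261 to 10740 in treated libraries, without overlap. That separation rested on KRT5, since the other 12 summed to between 3151 and 5558 FPKM in control and between 3236 and 3913 in treated libraries, which overlap. Their part in the members' differences was not tested. Of 23 relatives of the members found, 12 were tested and none passed. On the higher side were 9, with a median of 0.10, against 61.9% and 0.079 over all genes. Without control replicate 1 the medians of several lists changed sign, to -0.18 for basal markers, -0.10 for relatives, -0.054 for luminal regulators and 0.17 for luminal markers.

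Markers of other cell types were low. Fibroblast markers summed over 8 genes to between 27.9 and 45.1 FPKM in control and between 50.9 and 57.1 in treated libraries, without overlap. Of these, 7 were tested and none passed. On the higher side were 6, against 61.9% of all genes, with a median log2 fold change of 0.23. THY1 led them, at 4.31 ± 1.94 and 16.8 ± 2.40 FPKM (1.91 ± 0.31, adjusted p = 0.0711, and 0.0151 without control replicate 1). DCN (0.76 ± 0.24, adjusted p = 0.305) and LUM (0.57 ± 0.20, adjusted p = 0.345) followed. These 3 of the 7 rose in the fit with the covariate, against 11.7% of all genes. When control replicate 1 was also left out, THY1 passed (2.13, adjusted p = 0.00606), and DCN (0.67, adjusted p = 0.129) and LUM (0.54, adjusted p = 0.110) did not. Without THY1 the other 7 fibroblast markers summed to between 21.5 and 41.1 FPKM in control and between 33.2 and 43.0 in treated libraries, which overlap. COL1A1 had a control mean of 13.7 FPKM, and none of the 8 was at 0 throughout. The part of these genes in the members' differences was not tested. PECAM1 and CDH5, which define endothelium, reached at most 0.06 and 0.03 FPKM, although VWF had means of 3.09 and 4.77 FPKM (0.55 ± 0.23, adjusted p = 0.464), and the 6 endothelial markers summed to at most 6.51 FPKM. KDR, another of the 6, had a control mean of 1.31 and a treated mean of 0.573 FPKM. Its groups overlapped, and it was below the minimum for testing.

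PTPRC (CD45), carried by all white blood cells, reached at most 0.03 FPKM and CD79A was listed at 0. The 7 immune markers summed to at most 8.58 FPKM, nearly all of it AIF1 (log2 fold change -0.21 ± 0.44, adjusted p = 0.938). Adipocyte markers summed over 4 genes to between 0.38 and 0.80 FPKM in control and between 1.23 and 2.32 in treated libraries, without overlap, and none reached the minimum for testing. LEP, the hormone leptin, had 0.07, 0.11 and 0.23 FPKM in control cells and 1.55, 1.97 and 1 FPKM in treated cells, and the other 3 summed to at most 0.57 FPKM. Of those 3, PLIN1 was lower in every treated library, at 0.15, 0.13 and 0.23 FPKM against 0.31 FPKM in each control library. FABP4 averaged 0.0867 FPKM in both groups, and ADIPOQ reached at most 0.07 FPKM. The part of the adipocyte markers in the members' differences was not tested. Markers of mast cells and melanocytes, other cells that carry KIT, summed to at most 1.74 FPKM over 8 genes, of which 5 were listed at 0 in all 6 libraries and PMEL alone was tested (0.27 ± 0.23, adjusted p = 0.821).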

How the data were processed

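RNA from 6 libraries of bovine mammary epithelial cells was sequenced after poly(A) selection, per the labels' protocols. The authors deposited FPKM values for 24616 genes; the submitters' processing notes name the build ARS-UCD1.2 and DESeq2 with no role. The sources used here do not give the aligner, counting tool, annotation or strand setting, so overlapping and near-identical genes are uncertain, and no coordinates or sequences are given. Columns were matched to samples by title. The 11615 genes whose mean reached 1 FPKM were tested on log2(FPKM + 0.5) with limma's moderated test and a mean-variance trend, 2-sided, with Benjamini-Hochberg adjustment over all of them at 0.05, with no covariate. The fit without a covariate was also run on simulated data in which libraries varied independently. That run does not bear on differences shared across a library's genes, nor on the fits with the covariate.

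The members and 13 further lists (164 symbols, 158 found, 1 through an older symbol; GATA6, PGR, CEBPB, CD24, GAB2 and LSR were not matched) were chosen with earlier results of these data known; 1 related gene is not reported here. The genes named are all members, list genes past the threshold or else the 3 with the smallest p per list, and KITLG, TP63, ELF5, ESR1, OVOL2, GRHL3, SNAI2, ZEB1, CTNNB1 and ESRP1. Other genes, given as levels, were chosen after their values were seen. Alternatives covered the pseudocount, filter, scaling, variance model, replicate block, a covariate and leaving out each library. R 4.3.3, limma 3.58.1, Python 3.11.15, pandas 2.3.3, scipy 1.17.1 and matplotlib 3.10.9 were used.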

Additional observations from a re-analysis of the deposited data

How the results depend on the processing

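No member passed with any pseudocount, filter, scaling or variance model tried, nor in any fit that left out 1 library (limma, with 0 to 2 members at an unadjusted p under 0.05); 4 passed with summed FPKM as covariate and 3 with that covariate and 5 libraries. Over all genes, 55 passed (40 higher and 15 lower), against 62 with quantile normalization (35 and 27), 33 with a mean of at least 5 FPKM, 23 after rescaling to the same sum, 2089 with the covariate, 1598 with the covariate and 5 libraries, and from 0 to 205 when 1 library was left out (205 without control replicate 1). After rescaling, the median gene had a log2 fold change of 0.15 in place of 0.079. The labels do not say whether replicate numbers pair the libraries. Same-numbered libraries had correlations of -0.73, -0.37 and -0.38 between their deviations from the group means. These cannot decide it, since deviations from a mean of 3 libraries depend on each other. With the replicate number as a block 0 genes passed (584 at an unadjusted p under 0.05) and no member did. The members' median log2 fold change ran from -0.17 to 0.21 when 1 library was left out, against -0.021 with all 6, so that its sign turned. ELF3, GRHL2, OVOL1 and CDH1 kept their direction in all 18 alternatives, a count that was partly fixed in advance. Alternatives that change only the filter, the variance model or the replicate block leave the log2 fold change as it was. For ELF3, GRHL2 and CDH1, whose groups did not overlap, leaving out 1 library could not turn the sign either. Log2 fold changes of other genes turned. With quantile normalization GATA3 stood at -0.0012 and EPCAM at 0.017. After rescaling EHF stood at 0.053, EPCAM at 0.044, ELF5 at 0.041 and GRHL3 at 0.062. OVOL2 stood at -0.024 with median centring. CTNNB1 stood at -0.068 with the covariate and -0.085 with the covariate and 5 libraries. When 1 library was left out, GATA3 ran from -0.12 to 0.25, FOXA1 from -0.55 to 0.21, EHF from -0.38 to 0.18, GRHL1 from -0.0029 to 0.42 and EPCAM from -0.17 to 0.047. ELF5 ran from -0.14 to 0.15, GRHL3 from -0.28 to 0.14, OVOL2 from -0.063 to 0.26, CTNNB1 from -0.25 to 0.34, KITLG from -0.0046 to 0.76, ESRP1 from -0.067 to 0.22 and AIF1 from -0.55 to 0.24. The cause was not tested. Read depth is unknown, so replicate spread is the only error, and with 3 libraries a group it is itself imprecise.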
